A study of Mus musculus with 9 samples.

Results

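The 10 genes described here are members of the fibroblast growth factor (FGF) pathway of the limb bud: the ligands Fgf4, Fgf8 and Fgf10, the receptors Fgfr1, Fgfr2 and Fgfr3, and the feedback genes Spry1, Spry2, Spry4 and Dusp6. They are 10 of 21911 protein-coding genes of the GENCODE annotation on mm10. They were taken as a list of names, and the values gathered for each are the CUT&RUN peak intervals of HOXA13 and HOXD13 with a summit in the gene body or within 100 kb on either side. Overlapping intervals of the 9 deposited lists were merged into sites, which gave 336 sites in these windows of 193812 in the whole series.

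FGFs drive outgrowth of the limb bud through a loop between tissue layers. Fgf10 is secreted by the mesenchyme and acts on the overlying ectoderm through an epithelial form of Fgfr2, whereas Fgf8 and Fgf4 are made in the apical ectodermal ridge at the tip of the bud and signal back to the mesenchyme, mainly through Fgfr1. Receptor activation switches on inhibitors of the same pathway, the Sprouty proteins, which act on the Ras to MAP kinase cascade, and Dusp6, a phosphatase that inactivates ERK. HOXA13 and HOXD13 are homeodomain transcription factors of the distal limb mesenchyme, needed for digit formation, and CUT&RUN releases the DNA under such a factor by tethering a nuclease to it with an antibody.

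The libraries were made from distal forelimb cells of B6CBAF1 mouse embryos, which were not treated. There were 3 libraries for each factor from wild-type (wt) embryos at E12.5. The mutant line, II1TDOM 542 (542), was homozygous for a transgene with a copy of the distal limb enhancer II1, a promoter and lacZ, placed in T-DOM, a regulatory domain beside the HoxD cluster. It was profiled at E12.5 in 2 HOXA13 libraries, and its only HOXD13 library is titled E11.5. The growth protocol gives the same day of collection for every sample, so the stage of that library rests on its title. All 542 libraries come from this 1 transgenic line, and each library came from a pool of cells of several embryos. The third wt HOXD13 library is labelled as a second analysis of data deposited earlier. The tissue mixes mesenchyme and ectoderm, and no list says in which cells a site was occupied.

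The lists held 23939 to 117719 intervals, and their depth, recovered from the files, was 36.9 to 65.5 M read ends. The shortest list gave 45 intervals in the 10 windows and the longest 203. Replicates 3 of both antibodies had another read length and other deposited peak names than replicates 1 and 2. They gave the lowest fold enrichment of the wt libraries of their antibody at 21 of 29 sites called in all 9 lists, with HOXA13 and with HOXD13 alike. The 542 HOXA13 libraries shared the read length of replicates 1 and 2, and the 542 HOXD13 library had longer reads than any other. Interval numbers are therefore given as deposited and per 10000 intervals of the list. Each series of 9 values below runs in the order wt HOXA13 replicates 1 to 3, wt HOXD13 replicates 1 to 3, 542 HOXA13 replicates 1 and 2, and 542 HOXD13.

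The sequences that follow are the 151 bp around the median summit of the site called in most lists, for 8 of the 10 genes, since these sites carry most of the results. They are the plus strand of mm10. Capitals mark the HOX13 words searched for on both strands, CCNATAAA, CCNGTAAA, CTNATAAA and CTNGTAAA, of which no 8 bases of a strand can match more than 1. The longer stretch can hold words beyond the 50 bp used in the counts below. Such a word lay within 75 bp of the summit at 23.1% of all sites and at 33.6% of the sites called in all 9 lists. The stretch of Fgf8 lies at a start site of Mgea5, and those of Fgfr1 and Dusp6 lie at start sites of noncoding transcripts. The site of Fgfr3 covers the first exon of Slbp and is given by position only, and that of Spry4 is described by its values only.
Fgf4 (chr7:144941343-144941493): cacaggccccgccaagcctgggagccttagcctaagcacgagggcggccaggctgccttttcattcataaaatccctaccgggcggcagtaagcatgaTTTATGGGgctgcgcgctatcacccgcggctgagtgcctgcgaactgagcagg
Fgf8 (chr19:45783793-45783943): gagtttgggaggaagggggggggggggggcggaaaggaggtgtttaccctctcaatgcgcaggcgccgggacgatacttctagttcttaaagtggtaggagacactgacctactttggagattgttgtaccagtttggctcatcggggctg
Fgf10 (chr13:118825207-118825357): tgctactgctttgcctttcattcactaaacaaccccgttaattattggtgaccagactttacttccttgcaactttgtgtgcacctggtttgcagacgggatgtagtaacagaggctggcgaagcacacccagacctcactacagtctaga
Fgfr1 (chr8:25441196-25441346): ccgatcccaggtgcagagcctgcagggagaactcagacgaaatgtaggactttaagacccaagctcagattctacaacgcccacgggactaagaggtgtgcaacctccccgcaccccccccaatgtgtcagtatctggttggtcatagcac
Fgfr2 (chr7:130190072-130190222): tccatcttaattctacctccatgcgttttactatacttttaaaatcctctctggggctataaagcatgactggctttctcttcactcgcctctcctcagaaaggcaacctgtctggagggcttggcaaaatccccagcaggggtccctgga
Spry1 (chr3:37723367-37723517): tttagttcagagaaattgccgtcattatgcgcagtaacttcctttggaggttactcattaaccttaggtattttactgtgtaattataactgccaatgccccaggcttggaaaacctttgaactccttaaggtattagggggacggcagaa
Spry2 (chr14:105800339-105800489): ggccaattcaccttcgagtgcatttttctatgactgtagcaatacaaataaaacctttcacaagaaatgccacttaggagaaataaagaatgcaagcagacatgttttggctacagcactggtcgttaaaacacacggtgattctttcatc
Dusp6 (chr10:99299002-99299152): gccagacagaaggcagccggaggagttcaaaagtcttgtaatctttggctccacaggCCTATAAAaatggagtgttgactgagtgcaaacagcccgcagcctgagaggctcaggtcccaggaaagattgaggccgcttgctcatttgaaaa

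Another 5 stretches are shown because later results turn on them. They are the Dusp6 promoter, an Fgfr1 site higher with each of the antibodies, and the Dusp6 and Fgfr2 sites of all 9 lists whose word lay nearest the summit. They were chosen after their values were seen. Neither Fgfr1 site passed the antibody test of the main analysis, so higher gives only the direction of the wt means.
Dusp6 promoter (chr10:99262979-99263129): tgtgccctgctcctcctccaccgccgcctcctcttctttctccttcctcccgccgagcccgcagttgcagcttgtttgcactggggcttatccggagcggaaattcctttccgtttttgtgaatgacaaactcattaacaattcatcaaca
Fgfr1 first site, higher with HOXD13 (chr8:25543572-25543722): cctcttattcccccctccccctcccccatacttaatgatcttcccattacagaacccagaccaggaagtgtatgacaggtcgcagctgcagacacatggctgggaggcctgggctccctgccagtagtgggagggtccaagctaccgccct
Fgfr1 second site, higher with HOXA13 (chr8:25495406-25495556): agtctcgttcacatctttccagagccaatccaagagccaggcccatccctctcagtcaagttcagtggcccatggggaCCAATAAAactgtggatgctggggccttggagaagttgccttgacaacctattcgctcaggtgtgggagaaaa
Dusp6 downstream (chr10:99269113-99269263): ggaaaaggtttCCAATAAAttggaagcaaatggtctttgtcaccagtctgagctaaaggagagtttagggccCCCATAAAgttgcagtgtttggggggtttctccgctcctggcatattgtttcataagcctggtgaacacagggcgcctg
Fgfr2 intron (chr7:130183983-130184133): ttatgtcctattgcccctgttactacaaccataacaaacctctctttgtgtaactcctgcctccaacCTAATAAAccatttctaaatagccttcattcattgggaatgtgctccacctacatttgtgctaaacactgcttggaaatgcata

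Most FGF genes lay in regions rich in HOX13 intervals. Between 7 and 10 of the 10 windows exceeded the median density of all protein-coding windows in each library. The windows of the members ran from 204 to 304 kb. The 8 members other than Fgf4 and Fgf8 are called mesenchymal genes here. The label only groups them, since Fgfr2 also has the epithelial form named above. Dusp6 stood at a median of percentile 97.2 over the 9 libraries and was the densest of the 8 mesenchymal genes in 7 of 9 libraries. Fgfr2 stood at percentile 94.6 and Spry4 at 90.4. Fgf4 was the only one of the 10 below the middle of all genes, at percentile 35.7.

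**Figure D1:**
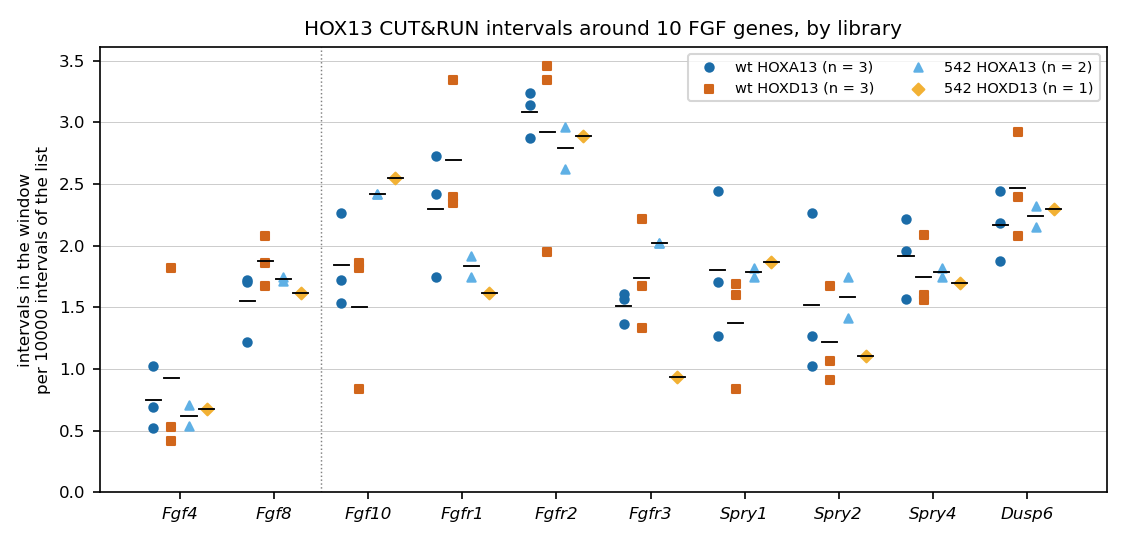
Intervals with a summit in the window of each FGF gene per 10000 intervals of the list (y axis), 1 point per library, with the mean of each group as a black bar; the dotted line separates Fgf4 and Fgf8 from the other genes. Fgf4 is the lowest gene in most libraries. The wt antibodies overlap at every gene, and with HOXA13 the wt and 542 values do not overlap at Fgf10 and Fgfr3.

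Among the ligands, Fgf4 had the fewest intervals. Its window held 6, 6, 3, 1, 14, 2, 7, 4 and 8 intervals. HOXD13 replicate 2 stood apart with 14, while the other wt HOXD13 libraries had 1 and 2. Of the 22 Fgf4 sites, 16 were called in 1 list only. The window also holds Fgf3, Fgf15, LTO1 and Ccnd1, and only 2 of its sites were nearer to the Fgf4 start site than to that of another coding gene. The Fgf4 promoter was called in HOXA13 replicate 1, with a fold enrichment of 2.91, and in HOXD13 replicate 2, with 2.72.

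The 1 Fgf4 site called in all 9 lists was the intergenic site printed above, 80.0 kb downstream of Fgf4 and 1549 bp from a start site of Ccnd1, the gene of cyclin D1. Its fold enrichments were 10.8, 8.57, 6.07, 7.77, 9.70, 5.87, 12.2, 12.8 and 9.35. Both 542 HOXA13 values lay above all 3 wt HOXA13 values, and the genotypes likewise did not overlap at 37.4% of all sites tested. After centring each library the log2 difference, 542 minus wt, was 0.14 (SE 0.21, limma adjusted p = 0.831). The 2 wt antibodies overlapped. A word lay 27 bp from the median summit.

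Fgf8 had 15, 10, 7, 4, 16, 7, 17, 13 and 19 intervals in a window of nearly the same length. Its density stood at a median of percentile 87.7, far above that of Fgf4. None of the 4 Fgf8 start sites had a summit within 500 bp in any list. Of the 34 Fgf8 sites, 5 were nearest an Fgf8 start site. The closest was an intronic site 2.13 kb downstream, called in 6 lists with fold enrichments of 2.91 and 3.40 in replicates 1 and 3 of wt HOXA13, 3.69 with wt HOXD13, 5.52 and 4.93 with 542 HOXA13 and 2.30 with 542 HOXD13. The remaining libraries had no call there.

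The site of Fgf8 in all 9 lists lay 41.0 kb upstream, 317 bp from a start site of Mgea5, with fold enrichments between 5.28 and 10.6. Its summits spread over 594 bp between libraries. Introns of Fbxw4, which are known to hold long-range limb enhancers of Fgf8, lay at the far edge of the window. They held 3 sites called in 7 or 8 lists, between 85.3 and 95.9 kb downstream of Fgf8. The most often called, in 8 lists, had fold enrichments of 6.18 and 3.02 with wt HOXA13, of 4.03, 4.45 and 2.90 with wt HOXD13, and of 6.19, 2.65 and 2.96 in the 542 libraries.

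Fgf10 had 15, 9, 13, 2, 14, 7, 24, 18 and 30 intervals, and no other coding gene lies in its window. All 36 of its sites were therefore nearest Fgf10. The 542 libraries gave the 3 highest numbers. Of its 36 sites, 16 were called in no wt list, a share of 44.4% against 32.5% over all sites in protein-coding windows. The leading site lay 111 kb downstream of the start site, in intergenic sequence beyond the gene, with fold enrichments of 9.41, 4.31, 4.24, 4.29, 5.54, 5.19, 9.66, 8.35 and 10.4. The second site in all 9 lists lay in an intron 18.4 kb downstream and was weak in every library, between 2.82 and 5.29. The promoter had a summit within 500 bp of the start site in 5 lists.

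Among the receptors, Fgfr2 carried the most sites, in the longest window. It spans 304 kb, against 257 kb at Fgfr1 and 215 kb at Fgfr3, and the numbers of sites are not scaled by length. The Fgfr2 window held 25, 19, 18, 8, 15, 13, 26, 22 and 34 intervals, and 46 sites of which 6 were called in all 9 lists. No other coding gene lies in the window. In 5 of these 6 sites the summit fell in an Fgfr2 intron. The leading site lay in an intron 76.0 kb downstream of the start site, with fold enrichments of 15.8, 13.9, 7.31, 7.07, 9.78, 6.60, 14.0, 12.9 and 10.6, the highest of them being the highest value at any member site in all 9 lists. HOXA13 replicates 1 and 2 lay above every HOXD13 library, whereas HOXA13 replicate 3 fell among them. The intronic site printed last above had the word CTAATAAA 4 bp from its summit and fold enrichments between 3.10 and 9.70. The Fgfr2 promoter was called in 7 lists, in all 3 wt HOXA13 lists and in 1 of 3 wt HOXD13 lists.

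Fgfr1, the main mesenchymal receptor, had 21, 16, 10, 8, 18, 9, 19, 13 and 19 intervals and 5 sites in all 9 lists. Its leading site lay 77.5 kb upstream, at the start of the transcript Gm45237, with fold enrichments from 4.55 to 11.2. The site with the word CCAATAAA, 7 bp from the summit and 23.3 kb upstream of Fgfr1, had fold enrichments of 11.7, 7.70 and 6.42 with wt HOXA13 and of 5.08, 4.88 and 4.24 with wt HOXD13. The antibodies did not overlap there, which was also the case at 11.1% of all sites tested. The promoter of Fgfr1 was called in 5 lists, with fold enrichments between 2.63 and 3.62.

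Fgfr3, a receptor best known from cartilage, had 14, 8, 9, 4, 17, 5, 20, 15 and 11 intervals. Its window is shared with 7 other coding genes, and 11 of its 33 sites were nearest Fgfr3. In 2 of its 3 sites in all 9 lists the summit fell in the promoter of another gene, Slbp or Fam53a. The third was intergenic, 29.1 kb upstream of Fgfr3, with fold enrichments of 5.98, 5.66, 2.30, 6.52, 13.5, 3.09, 10.0, 7.38 and 7.14. The leading site, at the Slbp promoter (chr5:33652001-33653005), ran from 3.67 to 10.6. The Fgfr3 promoter itself was called in 1 list. A site 1.67 kb downstream of the start site, at the promoter of the transcript G630022F23Rik and missing only from HOXD13 replicate 1, was chosen after its values were seen. It had 11.3, 8.28 and 6.79 with wt HOXA13, 5.90 and 3.23 with wt HOXD13, 13.5 and 13.8 with 542 HOXA13 and 11.6 with 542 HOXD13.

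The feedback genes held the promoters called most often. Spry4 and Dusp6 had a summit within 500 bp of the start site in all 9 lists, as did 17.0% of 20628 protein-coding promoters. The Dusp6 promoter summit lay 177 bp upstream of the start site, with fold enrichments of 5.93, 5.32, 3.57, 4.67, 6.56, 3.32, 7.14, 7.21 and 5.82. The printed stretch of 151 bp around it holds none of the words. At the Spry4 promoter the median summit lay 5 bp from the start site, with 8.89, 7.45, 4.02, 6.12, 11.6, 5.49, 9.94, 8.20 and 10.1. At both promoters replicate 3 gave the lowest wt value of its antibody.

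Spry1 had a promoter summit in 8 lists, missing only from HOXD13 replicate 1, the shortest list. Its fold enrichments there ran from 2.54 to 5.51. At Spry2 the nearest site was called in all 9 lists but its median summit lay 555 bp upstream, just outside the promoter as defined, so the Spry2 promoter counted in 1 list. Values at that site were 4.50, 3.25, 3.56, 4.16, 4.60, 3.19, 5.14, 4.19 and 5.05, without separation between the antibodies.

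The whole Dusp6 window held 19, 11, 14, 7, 16, 9, 23, 16 and 27 intervals. Besides the promoter, 3 sites were called in all 9 lists, all nearest Dusp6. Its leading site lay 35.8 kb downstream, at the start of the transcript B530045E10Rik, with fold enrichments of 13.3, 10.3, 4.28, 4.97, 10.2, 4.20, 12.4, 9.64 and 11.4 and the word CCTATAAA 14 bp from the summit. A further site 5.96 kb downstream of the Dusp6 start had the word CCCATAAA 1 bp from its summit, and a second word nearer the edge of the printed stretch. Its fold enrichments were between 3.74 and 10.1.

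Spry4 had 17, 13, 9, 5, 12, 6, 18, 13 and 20 intervals and 4 sites in all 9 lists, the promoter included. Its leading site, 17.1 kb downstream and just past the end of the gene, had the highest median percentile of fold enrichment of all leading sites, 98.6, with values of 14.7, 11.9, 5.41, 9.41, 9.62, 5.93, 14.9, 13.3 and 14.8. Spry1 had 11, 10, 14, 2, 13, 6, 18, 13 and 22 intervals, and its leading site lay 83.4 kb downstream in an intron of Gm5148, with 5.27 to 10.5. Spry2, with no other coding gene in its window, had 11, 6, 13, 4, 7, 4, 14, 13 and 13 intervals. Its leading site lay 96.4 kb downstream, with 4.18 to 9.47.

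**Figure D2:**
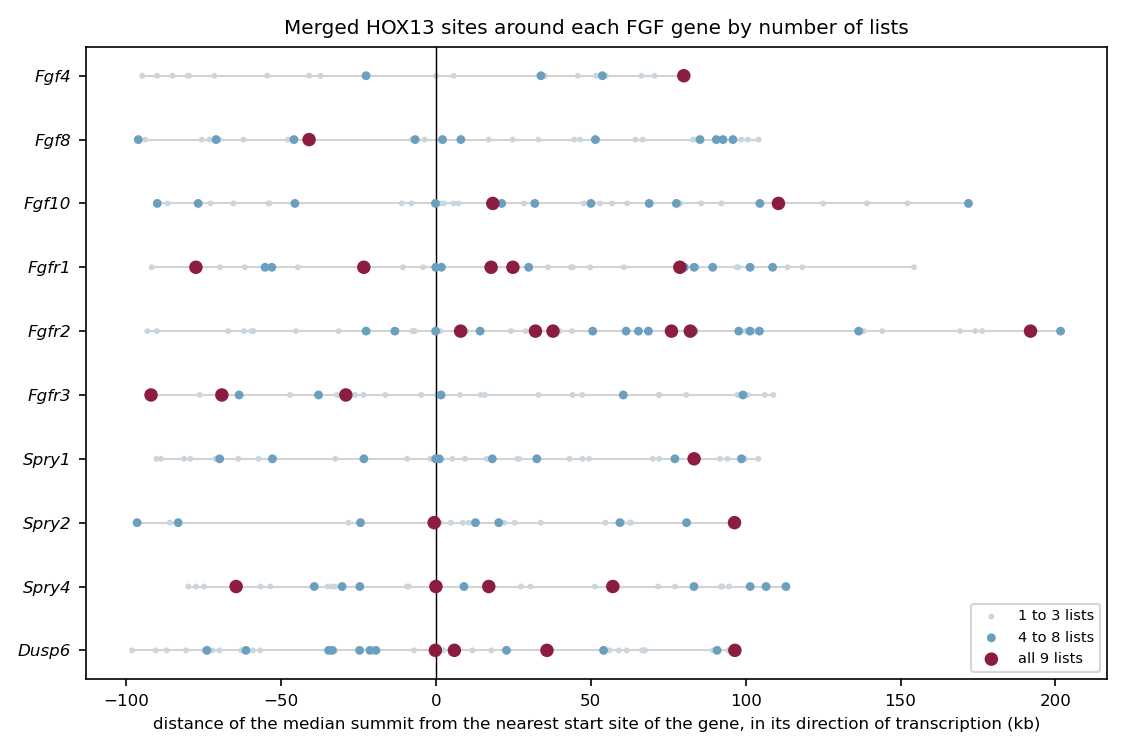
Position of the 336 merged sites relative to the nearest start site of each FGF gene, in kb along the direction of transcription (x axis), with size and colour giving the number of lists that called the site. Fgf4, Fgf8 and Spry1 each have 1 site in all 9 lists, Fgfr2 has 6, and the 3 genes with such a site at or next to the start site are Spry2, Spry4 and Dusp6.

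The ridge ligands had a lower density of intervals than the 8 other members, grouped as mesenchymal genes, in 8 of 9 libraries. The log2 ratio of intervals per Mb, Fgf4 and Fgf8 together over the 8 other genes, was -0.46, -0.32 and -1.12 with wt HOXA13, -0.80, 0.30 and -0.51 with wt HOXD13, -0.56 and -0.66 with 542 HOXA13 and -0.51 with 542 HOXD13. HOXD13 replicate 2 was the exception. Within replicates 3 the ratio was below 0 with both antibodies, and within replicates 1 and 2 it was below 0 in 3 of 4 libraries. Over the 6 wt libraries the mean was -0.49 ± 0.48 (SD, n = 6), a spread as large as the mean. It was -0.64 ± 0.43 (SD, n = 3) for HOXA13 and -0.34 ± 0.57 (SD, n = 3) for HOXD13. Since the group holds 2 genes that were chosen with results known, no test was made. Binding in few cells and weak binding in many cannot be told apart in a list made from mixed tissue.

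The genes were then taken singly, a choice made after seeing the data. In 7 of 9 libraries Fgf4 lay below all 8 mesenchymal genes, and its mean log2 ratio to them over the wt libraries was -1.24. Fgf8 lay below all of them in 1 of 9 libraries, and its mean log2 ratio was -0.04. Against Fgf10 as the only mesenchymal gene, the sign of the mean for both ridge genes turned to 0.057.

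**Figure D3:**
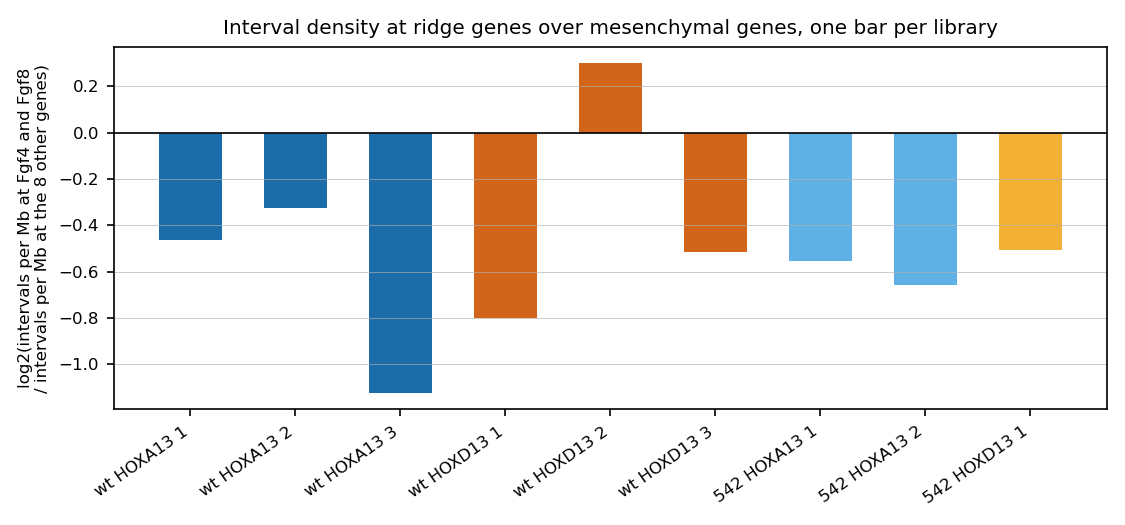
Log2 ratio of interval density (intervals per Mb of window) at Fgf4 and Fgf8 over that at the 8 mesenchymal genes, 1 bar per library, coloured by group. Bars lie between -1.12 and -0.32 in 8 libraries, and HOXD13 replicate 2 lies at 0.30.

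Sites around the ridge genes were also called in fewer lists. Of 56 ridge sites, 35 (62.5%) were called in 1 list, against 120 of 280 mesenchymal sites (42.9%) and 49.8% of all sites in protein-coding windows. HOXD13 replicate 2, the library that stood apart at Fgf4, was the only list with a call at a part of these 35 sites. The shares were not computed without that library, so the contrast may rest in part on it. By gene, the share in 1 list was 72.7% at Fgf4 and 55.9% at Fgf8, and it was 52.8% at Spry1. In all 9 lists were 2 ridge sites (3.57%) and 27 mesenchymal sites (9.64%). The share in all 9 was 4.55% at Fgf4, 2.94% at Fgf8 and 2.78% at Spry1. Over all 10 genes the number was 29 of 336 (8.63%), where the background was 6.68% of 157023 sites. Every member window held at least 1 such site, as did 69.6% of 20628 protein-coding windows. The number per gene ran from 1 at Fgf4, Fgf8 and Spry1 to 6 at Fgfr2, and the median over all windows was 1.

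The ridge windows hold 4 other coding genes at Fgf4 and 5 at Fgf8, while the window of Fgfr3 holds 7. A ridge gene was the nearest coding gene at 7 of 56 ridge sites, and neither of the 2 sites in all 9 lists was among them. For the mesenchymal genes the number was 208 of 280, from 11 of 33 at Fgfr3 to all 36 at Fgf10. At the 29 member sites in all 9 lists, the member was nearest in 22, the summit fell in an intron in 12, between genes in 9 and in a promoter in 8, and pileups ran from 16 to 776 read ends.

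**Figure D4:**
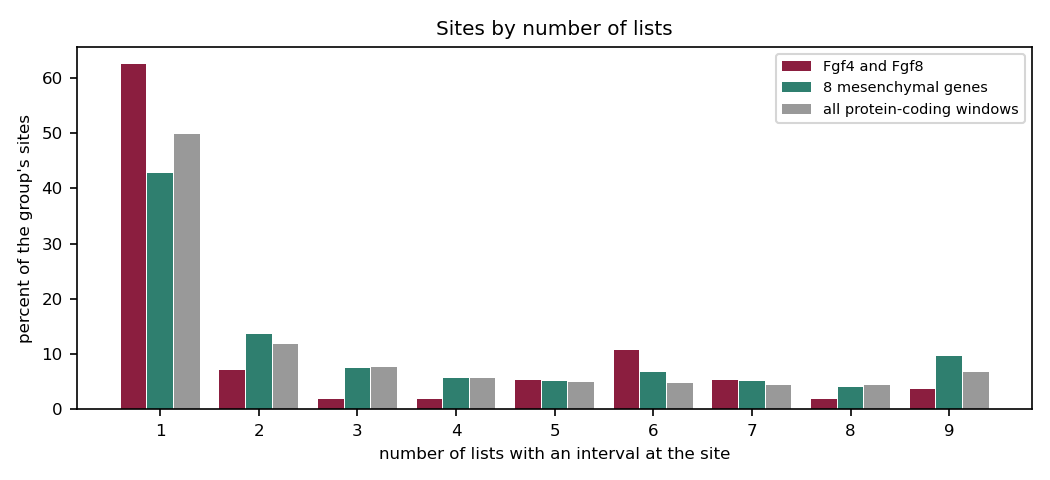
Percent of the sites of each group (y axis) by the number of lists with an interval at the site (x axis), for Fgf4 and Fgf8 (56 sites), the 8 mesenchymal genes (280 sites) and all protein-coding windows (157023 sites). The ridge genes have the largest share in 1 list and the smallest share in all 9. A part of the ridge sites in 1 list were called in HOXD13 replicate 2 alone.

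A HOX13 word lay within 50 bp of the summit at 8 of the 29 member sites in all 9 lists (27.6%, exact 95% interval 12.7 to 47.2%, for counting error only). Over all 12410 sites in 9 lists the share was 27.8%, so the members stood at the background. At 1000 bp from the summits the share was 4.71% over all sites in 9 lists. The words lay at Fgf4, Fgfr1, Spry4, 3 Fgfr2 sites and 2 Dusp6 sites. A match is a match of letters, and sites without one may hold other forms of the motif.

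By antibody, 114 of the 336 sites were called in wt lists of both factors, 73 in wt HOXA13 lists only, 40 in wt HOXD13 lists only and 109 in no wt list. Over all sites in protein-coding windows HOXA13 alone made up 24.4% and HOXD13 alone 13.6%, against 21.7% and 11.9% at the members. At the ridge genes 14 of 56 sites were called with HOXD13 alone and 7 with HOXA13 alone. The first number rests on HOXD13 replicate 2, the only wt list with a call at 12 of the 14 sites. Without that library 2 ridge sites had HOXD13 alone and 17 had HOXA13 alone, and over all sites in protein-coding windows the shares became 2.48% and 35.8%.

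The sites in all 3 wt lists of HOXA13 and in none of HOXD13 numbered 5, of which 2 lay at Fgf10, 2 at Fgfr2 and 1 at Spry1. They were 1.49% of the member sites, against 0.844% of all sites in protein-coding windows. The opposite, all 3 HOXD13 lists and none of HOXA13, was found at 0 member sites and at 0.0204% of all sites. Of the 5, 4 also appeared in 542 lists. The Fgf10 site 45.5 kb upstream had fold enrichments of 4.49, 2.82 and 4.18 with wt HOXA13, 8.24 and 6.27 with 542 HOXA13 and 4.36 with 542 HOXD13. An Fgfr2 intronic site 68.6 kb downstream had 6.34, 5.27 and 3.15 with wt HOXA13 and 9.81, 7.42 and 4.12 in the 542 libraries. The wt HOXD13 lists were shorter on average, and a site with no call can hold signal below the threshold of its list.

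The antibodies were then compared in wt across all genes with limma on log2(intervals per 10000 + 0.5), and no window passed an adjusted p of 0.05 (percent called 0, with 1032 of 18959 windows at an unadjusted p under 0.05). Among the members, none had an unadjusted p under 0.05. The differences, HOXA13 minus HOXD13, ran from -0.22 (SE 0.22, limma adjusted p = 0.887) at Fgf8 to 0.30 (SE 0.27, limma adjusted p = 0.882) at Spry1. Fgf8 had 1.73, 1.71 and 1.22 intervals per 10000 with HOXA13 and 1.67, 2.08 and 1.86 with HOXD13, and the sign of its difference turned without scaling. Spry1 had 1.27, 1.71 and 2.44 with HOXA13 and 0.84, 1.69 and 1.60 with HOXD13. Neither gene separated the antibodies. For 0 of the 10 members were the antibodies without overlap, against 11.6% of all windows.

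The same comparison at single sites used the fold enrichment of sites called in all 6 wt lists. Of 13391 such sites 1 passed (0.00747%), and none of the 31 member sites tested. Without HOXA13 replicate 3, 413 of 14084 sites passed in limma, among them 1 of 32 member sites. Unadjusted p-values under 0.05 were found for 7 of 31 member sites (22.6%) and for 13.5% of all sites tested. The median log2 difference was -0.13 at the members and -0.01 over all sites, with a range from -1.05 to 0.50. Fold enrichments of the antibodies did not overlap at 3 member sites (9.68%), against 11.1% of all sites tested. They were the Fgf10 intronic site, the Fgfr1 site 23.3 kb upstream, and an Fgfr1 intronic site 24.9 kb downstream of the start site.

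The last of these had the lowest p among the members. Its fold enrichments were 4.24, 4.29 and 3.89 with wt HOXA13, 5.38, 9.40 and 6.43 with wt HOXD13, 6.19 and 4.56 with 542 HOXA13 and 14.4 with 542 HOXD13. Every HOXD13 value of wt lay above every HOXA13 value of wt, within replicates 1 and 2 and in replicates 3. The means were 4.14 ± 0.22 with HOXA13 and 7.07 ± 2.09 with HOXD13 (SD, n = 3 each), and the log2 difference was -1.05 (SE 0.24, limma adjusted p = 0.130). Without HOXA13 replicate 3 the site passed, with an adjusted p of 0.0142 in limma. With any other single library left out it did not pass, at limma adjusted p-values between 0.196 and 0.553. The fit without HOXA13 replicate 3 keeps HOXD13 replicate 3, whose read length then falls in 1 antibody only. The printed sequence of this intron site holds none of the words. The Fgfr1 site 23.3 kb upstream, with the word CCAATAAA, had a difference of the opposite sign, 0.50 (SE 0.22, limma adjusted p = 0.356), with means of 8.62 ± 2.78 and 4.73 ± 0.43 (SD, n = 3 each).

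An Fgfr3 site 29.1 kb upstream had the second lowest p of the antibody comparison, with a log2 difference of -0.92 (SE 0.33, limma adjusted p = 0.260). The antibodies overlapped there, and the fold enrichments within an antibody differed several times between replicates.

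**Figure D5:**
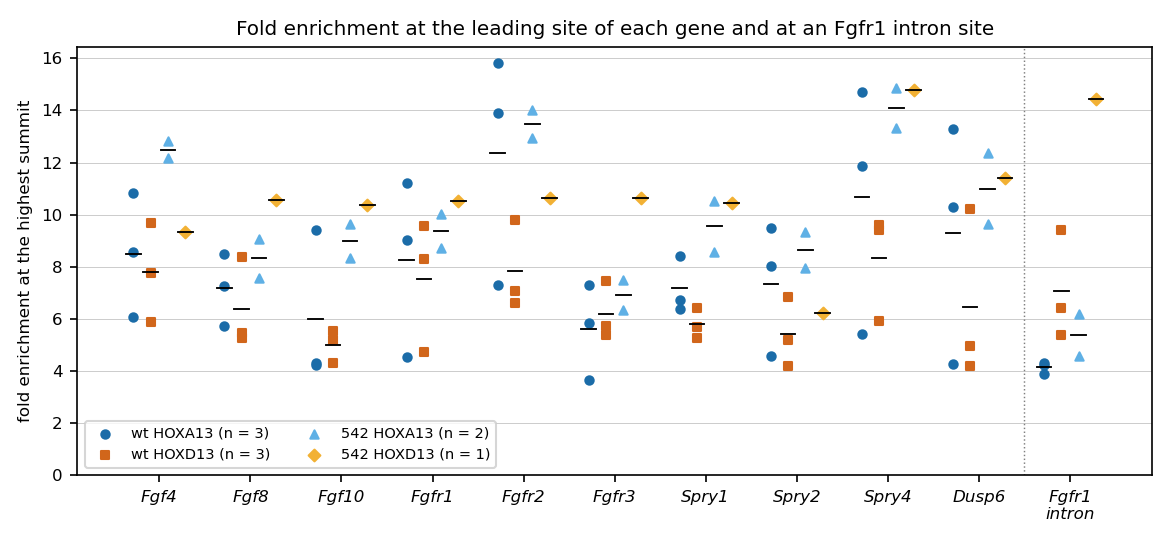
Fold enrichment at the highest summit of each library (y axis) at the leading site of each FGF gene and, right of the dotted line, at the Fgfr1 intronic site, 1 point per library with the mean of each group as a black bar. The wt antibodies overlap at the 10 leading sites, and at the Fgfr1 intronic site the wt HOXA13 values lie between 3.89 and 4.29, below the wt HOXD13 values.

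The 542 line was compared with wt for HOXA13, with 2 against 3 libraries at E12.5. No FGF member lies on the chromosome that carries the insertion. No window passed in limma (percent called 0, with 1016 of 18362 windows at an unadjusted p under 0.05), but 248 did without wt HOXA13 replicate 3. With all libraries, none of the members had an unadjusted p under 0.05. The differences, 542 minus wt, ran from -0.25 (SE 0.18, limma adjusted p = 0.837) at Fgfr1 to 0.33 (SE 0.17, limma adjusted p = 0.837) at Fgf10. Fgf10 had 2.42 intervals per 10000 in each 542 library and 1.73, 1.53 and 2.27 in the wt libraries. The groups did not overlap at Fgf10 and Fgfr3, 2 of 10 members, against 24.3% of all windows.

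At sites called in all 5 HOXA13 lists, 1 of 27116 passed (0.00369%) and none of the 55 member sites. Without wt HOXA13 replicate 3, which leaves libraries of 1 read length, 3643 of 36011 sites passed in limma, among them 5 of 72 member sites, namely the Fgf10 site 45.5 kb upstream, a pair at Spry1 and a pair at Dusp6. Unadjusted p-values under 0.05 were found for 4 of 55 member sites (7.27%) and 13.3% of all sites tested. Fold enrichments as deposited did not overlap at 20 of the 55 member sites (36.4%), and in 19 of them 542 was higher. The share over all sites tested was 37.4%, and after centring each library the median difference was -0.06 both at the members and over all sites.

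The lowest p-values among the members lay at a pair of sites downstream of Spry1, both lower in 542. In an intron of Gm5148, 77.1 kb downstream, fold enrichments were 8.10, 5.34 and 4.61 with wt HOXA13 and 3.45 and 3.98 with 542 HOXA13. The log2 difference was -1.12 (SE 0.23, limma adjusted p = 0.121). At 98.7 kb downstream they were 9.45, 4.84 and 4.42 in wt and 5.11 and 2.90 in 542, a log2 difference of -1.07 (SE 0.27, limma adjusted p = 0.151). Without wt HOXA13 replicate 3 both passed, with adjusted p-values of 0.00429 and 0.0067 in limma. With that replicate neither passed.

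The other pathway genes formed a list of 29, of which 27 were used, as Spred1 and Flrt3 lie past the insertion on the modified chromosome. They include further ligands, the Etv factors, adaptors and kinases of the cascade. Their windows held a median of 28 sites, of which a median of 2 were called in all 9 lists, and 25 of 27 held at least 1. Their densities had a median percentile of 65.1. Between 18 and 23 of the 27 exceeded the median of all windows in each library. Il17rd, an inhibitor of FGF signalling, had the most sites of the list, 60, at percentile 99.2.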

How the data were processed

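CUT&RUN peak lists of 9 libraries were used, grouped by genotype and antibody from their titles. According to the study's methods, reads were trimmed with Cutadapt, mapped with bowtie2 on mm10 or on the 542 genome and filtered for mapping quality, and MACS2 called peaks in each library separately, with no control library. The text has duplicates removed, whereas the printed command marks them and keeps them. Kept duplicates would raise pileups. As deposited, fold enrichment is a ratio, the pileup at a summit over the background expected around it. The authors' −log10 p-values and −log10 q-values rest on that same pileup. The last column deposited by the authors is the offset of the summit, used for positions.

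Rows with equal start and end formed 1 interval. Gene bodies were the span of transcripts with a CCDS in GENCODE vM21, since 1 Fgfr2 transcript without one stretches that gene record to 2.96 Mb. The window added 100 kb on either side, and an interval counted when any summit lay inside. Intervals of the 9 lists were merged where they shared at least 1 bp, and chromosome 2 past the insertion was left out. Pileups in read ends were recovered from fold enrichment and −log10 p. They were whole within 0.01 for at least 99.9% of summits. Percentiles of density and fold enrichment are ranks within 1 library.

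Windows were tested as log2(intervals per 10000 + 0.5), with a mean of at least 1 interval, and sites as log2 fold enrichment centred on the median of the library. Both used limma (trend and robust, two-sided, Benjamini-Hochberg over all features). The reporting summary gives each replicate as a separate pool of embryos, and wt HOXD13 replicate 3 comes from an earlier deposit, so p-values measure the spread between pools and between these runs. The code was tested on simulated data. Replicate numbers were not taken as pairs. Analyses used R 4.3.3 with limma 3.58.1, and Python 3.11.15 with pandas 2.3.3, numpy 2.4.6, pysam 0.24.0, scipy 1.17.1 and matplotlib 3.10.9.

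The members and gene lists were chosen with earlier results of these data known. All 10 members are named. For each, the leading site is the one called in most lists, with ties broken by the median percentile of fold enrichment. Promoters (500 bp either side of a start site) in all 9 lists, sites past a test and the highest and lowest members are named too. Alternatives changed the window, the intervals kept, the scaling, the merging, the motif, the replicate block and the libraries used.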

Additional observations from a re-analysis of the deposited data

How the results depend on the processing

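No member window or site passed a test in the main analysis, and of the 20 window differences of members (10 per comparison) 18 changed sign under at least 1 alternative. Under all alternatives 1 of these window differences passed, that of Fgf10 between genotypes with the replicate block (0.46, limma adjusted p = 0.041). Counts of windows called between antibodies were 0 except 4 at a fold enrichment of at least 5. Between genotypes they were 0, but 1415 with the replicate block, 456 with the top 20000 intervals and 0 to 248 with 1 library left out. Sites called between antibodies numbered 1, against 0 without centring, 10 with recovered pileups, 747 with the replicate block, 0 at a fold enrichment of at least 5, 7 at a −log10 q of at least 5 and 0 to 413 with 1 library left out. Between genotypes 1 site was called, against 3 without centring, 0 with quantile normalization, 0 with recovered pileups, 5030 with the replicate block, 0 at a fold enrichment of at least 5, 0 at a −log10 q of at least 5 and 0 to 3643 with 1 library left out. The high counts of 248, 413 and 3643 arose without wt HOXA13 replicate 3, and the block between genotypes leaves that library out too. The cause was not tested.

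Deviations from the antibody means correlated at -0.02, 0.23 and 0.54 over sites, and at -0.14, 0.19 and 0.47 over windows, for wt HOXA13 and HOXD13 libraries of the same number, so the numbers were not taken to pair them. The closest pair was that of replicates 3, at 0.54 over sites, which had another read length than replicates 1 and 2. HOXA13 replicate 1 went with HOXD13 replicate 2 at 0.46 over sites, against -0.02 with HOXD13 replicate 1. The main fits had no term for read length. With the replicate block 747 of 13391 sites passed between antibodies in limma, among them 2 of 31 member sites. These were the Fgfr1 intronic site (limma adjusted p = 0.0012) and the Fgfr3 site 29.1 kb upstream (0.00576). Between genotypes 5030 of 36011 sites passed in limma with the replicate block, among them 7 of 72 member sites. The Spry1 sites (limma adjusted p = 0.00597 and 0.00476) and the leading sites of Fgfr2 (0.00794) and Dusp6 (0.0474) were among the 7. So were the Fgf10 site 45.5 kb upstream (0.0361) and 2 further Dusp6 sites. The leading sites of Fgfr2 and Dusp6 were lower in 542, by log2 differences of -0.41 and -0.37.

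Of the differences named, that of Fgf8 between antibodies turned to 0.38 without scaling and 0.24 when scaled by read ends. That of Spry1 turned to -0.081 within the gene body and to -0.083 at a fold enrichment of at least 5, and that of Fgfr1 between genotypes to 0.066 without scaling. The ridge ratio moved from -0.49 to -1.02 with the top 20000 intervals, to -0.93 with flanks of 50 kb, to -0.29 with whole gene records, to -1.24 for Fgf4 alone and to 0.057 against Fgf10 alone, and ran from -0.65 to -0.36 with 1 library left out. For the gene body alone and for nearest genes it could not be computed, because a ridge density was 0 in at least 1 library. The 29 shared sites became 48 with flanks of 250 kb, 9 within gene bodies, 46 with whole gene records, 5 at a fold enrichment of at least 5, 16 with the top 20000 intervals and 18 when joined by summits within 200 bp. The share with a motif was 68.97% for the short cores ATAAA or GTAAA, against 65.3% over all sites in 9 lists. Whole gene records, each ridge gene alone and the ridge sites of 1 antibody without a HOXD13 library were chosen after seeing the data. Depth limits calls: a site missing from HOXD13 replicate 1, with 23939 intervals, may have signal below its threshold.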

Other observations

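In the Fgf4 window, sites called in 6 lists lay at the promoters of Fgf3, another FGF ligand, and of LTO1. Fold enrichments at Fgf3 were 4.41 and 3.22 with wt HOXA13, 3.73 with wt HOXD13 and 5.36, 4.32 and 4.50 in the 542 libraries. At LTO1 they ran from 2.81 to 3.66. Both sites were called in HOXA13 replicates 1 and 2 and in HOXD13 replicate 2, the 3 longest wt lists, and in none of the other wt lists.

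At the Fgfr1 intronic site the 542 HOXD13 library, titled E11.5, had a fold enrichment of 14.4, the highest of the 9 libraries there. At the Fgfr1 site 23.3 kb upstream it had 6.75, where the 542 HOXA13 libraries had 13.3 and 13.6. It is a single library, and stage, genotype, antibody and read length cannot be told apart in it.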
